A study of Arabidopsis thaliana with 12 samples.

Results

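This account concerns 98 Arabidopsis thaliana genes whose symbol in the array's annotation is only a locus code. Their mean signal after a dexamethasone spray differed from that after water in opposite directions in transgenic and wild-type leaves. They were chosen by their values: a probe set with a single gene, whose symbol in the array's annotation is a bare locus code, was taken when the mean of the dexamethasone arrays minus that of the water arrays was at least 0.4 on the log2 scale in size in both genotypes, with opposite signs. Of 11798 locus-named genes, measured by 11933 probe sets, 98 met this rule, each through a single probe set. Of these, 43 were higher after dexamethasone in the transgenic line and lower after it in the wild type, and 55 were lower in the line and higher in the wild type. Since the rule used the means of all 4 groups, the 2 responses are given as a description, and the limma calls given for them later support nothing.

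The 4 groups had 3 arrays each, from samples that the labels call biological replicates, and all were mature leaves of 4-week-old plants of the Col-0 background. CPR5-C dexamethasone leaves carried the transgene Dex:YFP-CPR5-C, the C-terminal portion of CPR5 joined to a yellow fluorescent protein and inducible by dexamethasone, and were sprayed with 50 µM dexamethasone. CPR5-C water leaves carried the same transgene and were sprayed with water. WT dexamethasone leaves carried no transgene and received the same 50 µM spray, and WT water leaves received water. All were collected 24 hours after spraying. According to the study's design, the fragment interferes with native CPR5 and acts as a dominant negative. The labels name neither the promoter system nor the number of independent transgenic lines, and no group carried an inducible construct without the fragment. Values are log2 signals of ATH1 microarrays from which the median of the 12 arrays was subtracted for each probe set. They show differences between groups, not levels, so the leaf label could not be checked against the level of marker genes.

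As background, dexamethasone is a synthetic glucocorticoid hormone of animals. Plants have no glucocorticoid receptor of their own, and inducible systems in plants usually bring one in as part of a transgenic activator. CPR5 sits in the membrane of the nuclear envelope, at the pores, and plants that lack it show spontaneous lesions, raised immunity and early senescence. A locus code such as AT4G28085 gives the chromosome, here chromosome 4, and the order along it, and says nothing of function. The tables used here list a gene name for 2 of the 98 genes. AT5G48570 is FKBP65 (also ROF2), a peptidyl-prolyl isomerase that binds FK506 and is known for its induction by heat. AT1G68570 is NPF3.1, of a family of membrane transporters for nitrate and peptides. The other 96 have locus and clone names only in these tables, whether or not they are named elsewhere, and no role is given for them here.

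Across all probe sets, centred values had an SD between 0.68 and 0.69 on each array of CPR5-C dexamethasone leaves, 0.13 and 0.14 in CPR5-C water leaves, 0.14 and 0.16 in WT dexamethasone leaves, and 0.19 and 0.23 in WT water leaves. The median SD of the 98 genes between the arrays of a group was 0.12 in CPR5-C dexamethasone and 0.11 in CPR5-C water leaves. It was 0.10 in WT dexamethasone and 0.12 in WT water leaves. Over all probe sets it was lower, 0.09 in each group. The highest SD among the 98 genes was 0.47 in CPR5-C dexamethasone (AT2G05540) and 0.60 in CPR5-C water leaves (AT1G68600). In WT leaves it was 0.51 after dexamethasone (AT5G55450) and 1.07 after water (AT2G28720). Among 342 locus-named probe sets past 0.4 in both genotypes, 98 (28.7%) had opposite signs, 81 were higher in both and 163 lower in both. Among the 1580 single-gene probe sets with another symbol, 24 of the 90 past 0.4 in both genotypes (26.7%) had opposite signs. Of all 22746 probe sets 260 (1.14%) met the same thresholds with opposite signs, 105 of them higher in CPR5-C leaves.

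**Figure D1:**
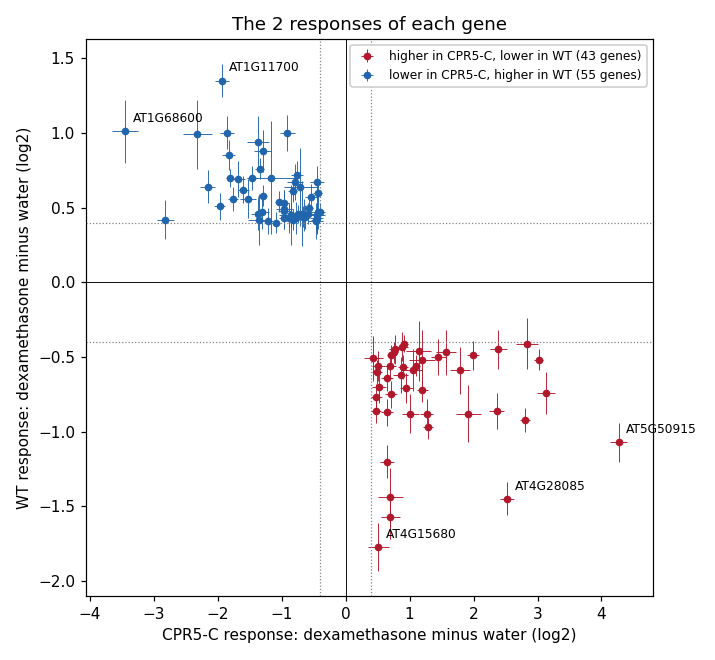
Response of each of the 98 genes to dexamethasone in CPR5-C leaves (horizontal axis) and in WT leaves (vertical axis), as differences of group means on the log2 scale with the fitted standard error; dotted lines mark 0.4. The 43 genes at the lower right reach 4.27 in CPR5-C leaves and -1.77 in WT leaves, and the 55 at the upper left reach -3.45 and 1.35.

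Among the 43 genes higher in CPR5-C and lower in WT leaves, AT4G28085 and AT5G50915 led when genes were ranked by the smaller of their 2 responses in size; the 15 highest in this ranking are called leading genes. AT4G28085 stood at 1.87, 1.83 and 1.92 in CPR5-C leaves after dexamethasone, against -0.59, -0.62 and -0.72 after water, a difference of 2.52 (SE 0.11). AT4G28085 in WT leaves was at -0.89, -0.53 and -0.89 after dexamethasone, against 0.53, 0.64 and 0.89 after water, a difference of -1.45 (SE 0.11). It was 5.72-fold higher in CPR5-C and 2.74-fold lower in WT leaves, and the arrays did not overlap in either genotype. AT5G50915 stood at 3.77, 3.72 and 3.65 in CPR5-C leaves after dexamethasone, against -0.34, -0.44 and -0.89 after water, a difference of 4.27 (SE 0.13). AT5G50915 in WT leaves was at -0.63, -0.58 and -0.47 after dexamethasone, against 0.34, 0.47 and 0.72 after water, a difference of -1.07 (SE 0.13). This was the largest increase of the 98 genes in CPR5-C leaves, 19.3-fold, with a WT value 2.1-fold lower. AT5G65660 stood at 2.65, 2.45 and 2.62 in CPR5-C leaves after dexamethasone, against -0.14, -0.41 and -0.17 after water, a difference of 2.81 (SE 0.08). AT5G65660 in WT leaves was at -0.67, -0.70 and -0.85 after dexamethasone, against 0.14, 0.15 and 0.24 after water, a difference of -0.92 (SE 0.08). Its CPR5-C dexamethasone arrays lay between 2.45 and 2.65, and its WT dexamethasone arrays were the lowest of the 12. AT4G34950 stood at 3.15, 2.87 and 3.18 in CPR5-C leaves after dexamethasone, against -0.07, 0.07 and -0.19 after water, a difference of 3.13 (SE 0.14). AT4G34950 in WT leaves was at -0.67, -0.51 and -0.32 after dexamethasone, against -0.09, 0.53 and 0.29 after water, a difference of -0.74 (SE 0.14). The CPR5-C difference was 8.77-fold, while the water arrays of the genotypes overlapped.

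AT4G33420 stood at 1.72, 1.86 and 1.65 in CPR5-C leaves after dexamethasone, against -0.72, -0.56 and -0.58 after water, a difference of 2.36 (SE 0.12). AT4G33420 in WT leaves was at -0.23, -0.22 and -0.40 after dexamethasone, against 0.70, 0.22 and 0.81 after water, a difference of -0.86 (SE 0.12). Here the CPR5-C water arrays, and not the WT dexamethasone arrays, were the lowest. AT2G16660 stood at 1.72, 1.68 and 1.67 in CPR5-C leaves after dexamethasone, against -0.45, -0.17 and -0.08 after water, a difference of 1.92 (SE 0.19). AT2G16660 in WT leaves was at -0.87, -0.28 and -0.08 after dexamethasone, against 0.08, 0.78 and 0.56 after water, a difference of -0.88 (SE 0.19). The WT groups came close to each other, since replicate 3 had -0.08 after dexamethasone and replicate 1 had 0.08 after water. AT3G55430 stood at 0.78, 1.02 and 0.90 in CPR5-C leaves after dexamethasone, against -0.41, -0.50 and -0.27 after water, a difference of 1.29 (SE 0.08). AT3G55430 in WT leaves was at -0.67, -0.65 and -0.68 after dexamethasone, against 0.36, 0.27 and 0.28 after water, a difference of -0.97 (SE 0.08). The WT dexamethasone arrays of this gene lay between -0.68 and -0.65, below all others. AT5G23130 stood at 1.06, 1.0 and 1.19 in CPR5-C leaves after dexamethasone, against -0.11, -0.14 and -0.30 after water, a difference of 1.27 (SE 0.10). AT5G23130 in WT leaves was at -0.45, -0.68 and -0.54 after dexamethasone, against 0.49, 0.11 and 0.38 after water, a difference of -0.88 (SE 0.10). All 3 CPR5-C dexamethasone arrays lay above every WT water array.

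AT2G24550 stood at 1.13, 1.14 and 1.10 in CPR5-C leaves after dexamethasone, against -0.11, -0.24 and 0.09 after water, a difference of 1.20 (SE 0.08). AT2G24550 in WT leaves was at -0.65, -0.69 and -0.79 after dexamethasone, against 0.04, 0.01 and -0.01 after water, a difference of -0.72 (SE 0.08). The WT water arrays lay near 0, within the range of the CPR5-C water arrays. AT5G10695 stood at 0.56, 0.81 and 0.78 in CPR5-C leaves after dexamethasone, against -0.17, -0.50 and -0.20 after water, a difference of 1.01 (SE 0.13). AT5G10695 in WT leaves was at -0.89, -0.31 and -0.60 after dexamethasone, against 0.17, 0.41 and 0.27 after water, a difference of -0.88 (SE 0.13). The CPR5-C and WT responses of this gene were close in size, 2.01-fold higher and 1.85-fold lower. AT4G37180 stood at 0.74, 0.56 and 0.38 in CPR5-C leaves after dexamethasone, against -0.50, -0.35 and -0.33 after water, a difference of 0.95 (SE 0.10). AT4G37180 in WT leaves was at -0.25, -0.33 and -0.58 after dexamethasone, against 0.43, 0.25 and 0.29 after water, a difference of -0.71 (SE 0.10). The low groups, CPR5-C water and WT dexamethasone, overlapped each other. AT1G69840 stood at 0.56, 0.51 and 0.65 in CPR5-C leaves after dexamethasone, against -0.13, -0.18 and -0.08 after water, a difference of 0.71 (SE 0.09). AT1G69840 in WT leaves was at -0.53, -0.31 and -0.55 after dexamethasone, against 0.39, 0.08 and 0.39 after water, a difference of -0.75 (SE 0.09). In this gene the WT difference was the larger in size.

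In the last 3 of the leading 15 described here, the WT difference was also the larger, and the WT water arrays had the highest mean. AT1G02660 stood at 0.24, 0.55 and 0.43 in CPR5-C leaves after dexamethasone, against -0.13, -0.27 and -0.48 after water, a difference of 0.70 (SE 0.20). AT1G02660 in WT leaves was at -1.02, -0.41 and -1.12 after dexamethasone, against 0.98, 0.13 and 0.64 after water, a difference of -1.44 (SE 0.20). Its WT water arrays spread from 0.13 to 0.98. AT3G59350 stood at 0.32, 0.20 and 0.07 in CPR5-C leaves after dexamethasone, against -0.38, -0.58 and -0.40 after water, a difference of 0.65 (SE 0.09). AT3G59350 in WT leaves was at -0.09, -0.07 and -0.34 after dexamethasone, against 0.67, 0.66 and 0.79 after water, a difference of -0.87 (SE 0.09). Every WT water array lay above every CPR5-C dexamethasone array. The remaining leading gene, AT4G15700, is described with its neighbours further on.

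**Figure D2:**
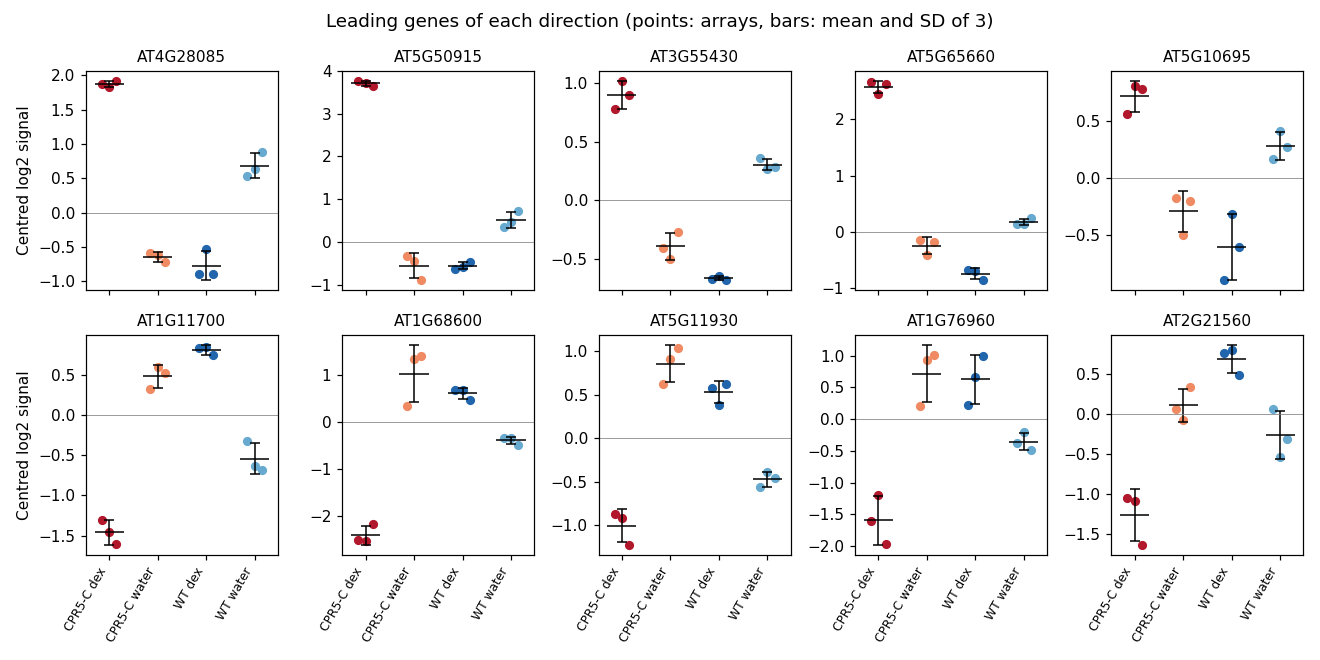
Centred log2 signal on each array for the first 5 leading genes of each direction (upper row: higher in CPR5-C, lower in WT; lower row: the opposite), with the mean and SD of 3 arrays. Arrays after dexamethasone and water do not overlap in either genotype; AT5G50915 stands between 3.65 and 3.77 in CPR5-C dexamethasone leaves and at 0.72 or below in all others.

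The other 28 genes of this direction had CPR5-C differences from 0.43 to 3.02 (SE 0.06 to 0.20) and WT differences from -1.77 to -0.41 (SE 0.06 to 0.20). Of them, 11 were higher by at least 1 in CPR5-C leaves. AT2G12400, AT4G36010 and AT1G62480 had the largest CPR5-C differences among them, and the first and second of these were chosen for description after their values were seen. AT2G12400 stood at 2.90, 2.78 and 2.99 in CPR5-C leaves after dexamethasone, against -0.15, -0.09 and -0.15 after water, a difference of 3.02 (SE 0.07). AT2G12400 in WT leaves was at -0.37, -0.31 and -0.41 after dexamethasone, against 0.11, 0.09 and 0.27 after water, a difference of -0.52 (SE 0.07). It was 8.13-fold higher in CPR5-C and 1.43-fold lower in WT leaves. AT4G36010 stood at 2.55, 2.88 and 2.65 in CPR5-C leaves after dexamethasone, against -0.03, -0.42 and 0.03 after water, a difference of 2.83 (SE 0.17). AT4G36010 in WT leaves was at -0.54, -0.25 and -0.07 after dexamethasone, against -0.20, 0.48 and 0.09 after water, a difference of -0.41 (SE 0.17). Here the WT groups overlapped, so only the CPR5-C side stood clear of the spread between arrays. AT1G62480 stood at 2.37, 2.29 and 2.04 in CPR5-C leaves after dexamethasone, against -0.15, -0.01 and -0.29 after water, a difference of 2.39 (SE 0.13). AT1G62480 in WT leaves was at -0.09, -0.13 and -0.21 after dexamethasone, against 0.59, 0.01 and 0.33 after water, a difference of -0.45 (SE 0.13). Its CPR5-C difference was 5.23-fold.

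Among the 55 genes lower in CPR5-C and higher in WT leaves, AT1G11700 and AT1G68600 led the same ranking. AT1G11700 stood at -1.30, -1.46 and -1.61 in CPR5-C leaves after dexamethasone, against 0.32, 0.60 and 0.52 after water, a difference of -1.94 (SE 0.11). AT1G11700 in WT leaves was at 0.83, 0.85 and 0.74 after dexamethasone, against -0.32, -0.63 and -0.68 after water, a difference of 1.35 (SE 0.11). It was 3.83-fold lower in CPR5-C and 2.55-fold higher in WT leaves, the largest WT increase of the 98. AT1G68600 stood at -2.52, -2.55 and -2.19 in CPR5-C leaves after dexamethasone, against 0.34, 1.35 and 1.42 after water, a difference of -3.45 (SE 0.21). AT1G68600 in WT leaves was at 0.68, 0.69 and 0.48 after dexamethasone, against -0.34, -0.35 and -0.49 after water, a difference of 1.01 (SE 0.21). This was the largest decrease in CPR5-C leaves, 11.0-fold, although CPR5-C water replicate 1, at 0.34, was far below the other CPR5-C water arrays. AT5G11930 stood at -0.87, -0.92 and -1.22 in CPR5-C leaves after dexamethasone, against 0.63, 0.91 and 1.04 after water, a difference of -1.86 (SE 0.11). AT5G11930 in WT leaves was at 0.58, 0.39 and 0.63 after dexamethasone, against -0.56, -0.39 and -0.46 after water, a difference of 1.0 (SE 0.11). The CPR5-C water arrays were as high as, or higher than, every WT dexamethasone array. AT1G76960 stood at -1.61, -1.20 and -1.97 in CPR5-C leaves after dexamethasone, against 0.21, 0.93 and 1.02 after water, a difference of -2.32 (SE 0.23). AT1G76960 in WT leaves was at 0.23, 0.67 and 1.0 after dexamethasone, against -0.38, -0.21 and -0.48 after water, a difference of 0.99 (SE 0.23). Its arrays spread widely, from 0.21 to 1.02 in CPR5-C water leaves and from 0.23 to 1.0 in WT dexamethasone leaves, without reaching those of the paired group.

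AT2G21560 stood at -1.05, -1.09 and -1.63 in CPR5-C leaves after dexamethasone, against 0.07, -0.07 and 0.34 after water, a difference of -1.37 (SE 0.17). AT2G21560 in WT leaves was at 0.77, 0.81 and 0.49 after dexamethasone, against 0.07, -0.53 and -0.31 after water, a difference of 0.94 (SE 0.17). The CPR5-C water arrays of this gene overlapped the WT water arrays. AT1G64360 stood at -1.19, -1.29 and -1.17 in CPR5-C leaves after dexamethasone, against 0.38, 0.72 and 0.74 after water, a difference of -1.83 (SE 0.10). AT1G64360 in WT leaves was at 0.54, 0.44 and 0.32 after dexamethasone, against -0.37, -0.55 and -0.32 after water, a difference of 0.85 (SE 0.10). It was 3.56-fold lower in CPR5-C and 1.80-fold higher in WT leaves. AT1G06000 stood at -0.94, -0.84 and -0.89 in CPR5-C leaves after dexamethasone, against 0.51, 0.55 and 0.16 after water, a difference of -1.30 (SE 0.14). AT1G06000 in WT leaves was at 0.55, 0.26 and 0.95 after dexamethasone, against -0.41, -0.32 and -0.16 after water, a difference of 0.88 (SE 0.14). Replicates of WT dexamethasone leaves ranged from 0.26 to 0.95 here. AT3G44450 stood at -0.96, -1.11 and -1.09 in CPR5-C leaves after dexamethasone, against 0.25, 0.35 and 0.27 after water, a difference of -1.34 (SE 0.07). AT3G44450 in WT leaves was at 0.40, 0.39 and 0.51 after dexamethasone, against -0.33, -0.41 and -0.25 after water, a difference of 0.76 (SE 0.07). The 3 arrays of each group lay close together, and all WT dexamethasone arrays lay above the CPR5-C water arrays.

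AT4G26950 stood at -0.67, -0.36 and -0.73 in CPR5-C leaves after dexamethasone, against 0.18, 0.30 and 0.49 after water, a difference of -0.91 (SE 0.12). AT4G26950 in WT leaves was at 0.66, 0.50 and 0.85 after dexamethasone, against -0.46, -0.18 and -0.35 after water, a difference of 1.0 (SE 0.12). The WT difference was the larger of the pair. AT3G22970 stood at -0.54, -0.48 and -0.36 in CPR5-C leaves after dexamethasone, against 0.17, 0.39 and 0.34 after water, a difference of -0.76 (SE 0.09). AT3G22970 in WT leaves was at 0.37, 0.39 and 0.40 after dexamethasone, against -0.17, -0.32 and -0.50 after water, a difference of 0.72 (SE 0.09). The differences were close in size. AT1G21050 stood at -1.60, -1.41 and -1.53 in CPR5-C leaves after dexamethasone, against 0.29, 0.29 and 0.31 after water, a difference of -1.81 (SE 0.06). AT1G21050 in WT leaves was at 0.42, 0.38 and 0.38 after dexamethasone, against -0.29, -0.29 and -0.35 after water, a difference of 0.70 (SE 0.06). Its SE of 0.06 was the lowest among the 30 leading genes of both directions. AT2G27420 stood at -1.16, -1.29 and -1.40 in CPR5-C leaves after dexamethasone, against 0.29, 0.07 and 0.21 after water, a difference of -1.47 (SE 0.08). AT2G27420 in WT leaves was at 0.60, 0.51 and 0.54 after dexamethasone, against -0.16, -0.22 and -0.07 after water, a difference of 0.70 (SE 0.08). Each group stood clear of its counterpart by more than its own range.

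AT1G22160 stood at -1.18, -1.02 and -1.17 in CPR5-C leaves after dexamethasone, against 0.21, 0.79 and 0.71 after water, a difference of -1.69 (SE 0.12). AT1G22160 in WT leaves was at 0.43, 0.44 and 0.43 after dexamethasone, against -0.25, -0.21 and -0.31 after water, a difference of 0.69 (SE 0.12). Replicate 1 of CPR5-C water leaves was the lowest of its group, as for AT1G68600. AT5G53420 stood at -0.56, -0.42 and -0.23 in CPR5-C leaves after dexamethasone, against 0.16, 0.55 and 0.44 after water, a difference of -0.79 (SE 0.12). AT5G53420 in WT leaves was at 0.36, 0.23 and 0.55 after dexamethasone, against -0.39, -0.16 and -0.32 after water, a difference of 0.67 (SE 0.12). The CPR5-C dexamethasone arrays overlapped the WT water arrays. AT2G28720 stood at -0.74, -0.95 and -0.72 in CPR5-C leaves after dexamethasone, against 0.03, 0.50 and 0.59 after water, a difference of -1.17 (SE 0.38). AT2G28720 in WT leaves was at 0.49, 0.37 and -0.40 after dexamethasone, against 0.15, -1.78 and -0.03 after water, a difference of 0.70 (SE 0.38). The WT groups of this gene overlapped, and the WT difference rested on WT water replicate 2: without it the difference was 0.09.

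The other 40 genes of this direction had CPR5-C differences from -2.82 to -0.40 (SE 0.06 to 0.26) and WT differences from 0.40 to 0.67 (SE 0.06 to 0.26), and 13 of them were lower by at least 1 in CPR5-C leaves. AT5G59670, AT1G80130 and AT1G21590 had the largest CPR5-C differences among them and were singled out after their values were seen. AT5G59670 stood at -2.74, -2.70 and -2.68 in CPR5-C leaves after dexamethasone, against 0.28, 0.07 and -0.01 after water, a difference of -2.82 (SE 0.13). AT5G59670 in WT leaves was at 0.34, 0.06 and 0.25 after dexamethasone, against -0.06, -0.57 and 0.01 after water, a difference of 0.42 (SE 0.13). Its WT difference was 0.24 without WT water replicate 2. AT1G80130 stood at -1.84, -1.57 and -1.74 in CPR5-C leaves after dexamethasone, against 0.14, 0.54 and 0.66 after water, a difference of -2.16 (SE 0.11). AT1G80130 in WT leaves was at 0.44, 0.47 and 0.42 after dexamethasone, against -0.21, -0.14 and -0.24 after water, a difference of 0.64 (SE 0.11). The WT dexamethasone arrays of this gene lay within the range of its CPR5-C water arrays. AT1G21590 stood at -1.69, -1.93 and -1.65 in CPR5-C leaves after dexamethasone, against 0.20, 0.24 and 0.20 after water, a difference of -1.97 (SE 0.09). AT1G21590 in WT leaves was at 0.33, 0.19 and 0.16 after dexamethasone, against -0.16, -0.41 and -0.30 after water, a difference of 0.51 (SE 0.09). It was 3.91-fold lower in CPR5-C leaves.

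Both genes with a name among the synonyms belonged to this direction. AT5G48570 stood at 0.18, -0.27 and -0.66 in CPR5-C leaves after dexamethasone, against 0.25, 0.30 and 0.72 after water, a difference of -0.68 (SE 0.22). AT5G48570 in WT leaves was at 0.60, 0.37 and -0.34 after dexamethasone, against -0.34, -0.25 and -0.18 after water, a difference of 0.46 (SE 0.22). For this isomerase, FKBP65, the CPR5-C dexamethasone arrays were spread from -0.66 to 0.18, and WT dexamethasone replicate 3, at -0.34, was as low as the lowest WT water array. AT1G68570 stood at -0.08, -0.40 and -0.52 in CPR5-C leaves after dexamethasone, against 0.08, 0.13 and 0.14 after water, a difference of -0.45 (SE 0.10). AT1G68570 in WT leaves was at 0.16, 0.16 and 0.18 after dexamethasone, against -0.28, -0.36 and -0.15 after water, a difference of 0.43 (SE 0.10). For this transporter, NPF3.1, the arrays of neither genotype overlapped, and CPR5-C dexamethasone replicate 1 was the closest to 0.

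**Figure D3:**
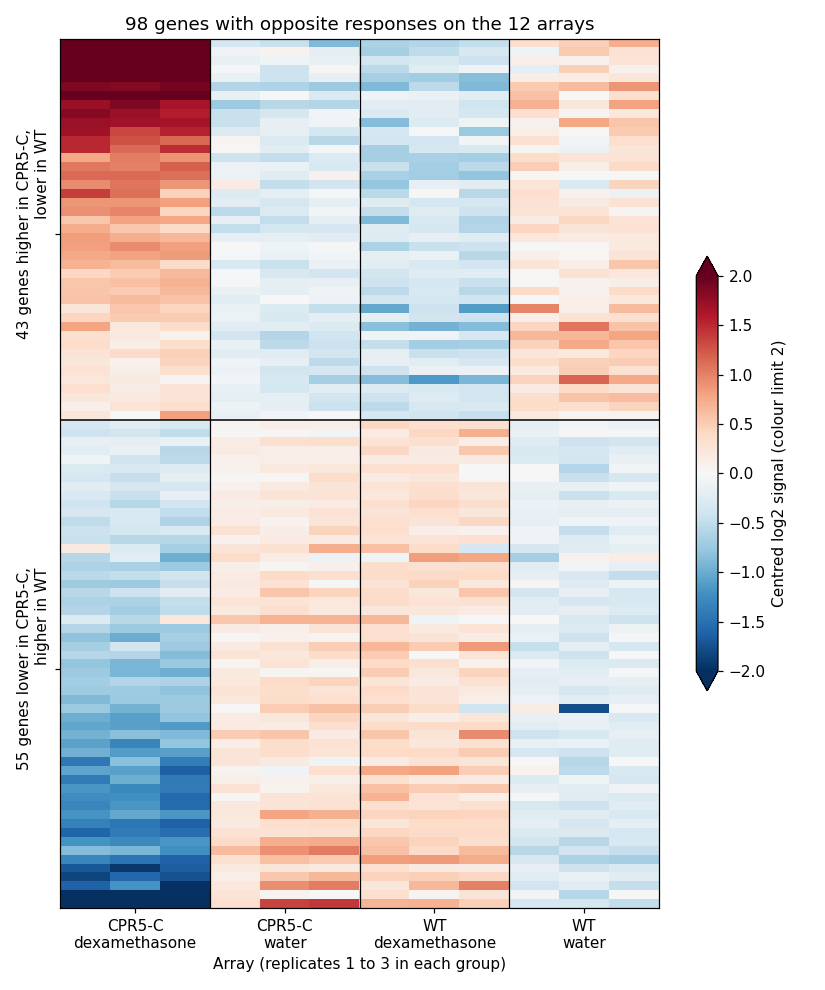
Centred log2 signal of the 98 genes (rows, sorted by the CPR5-C difference within each direction) on the 12 arrays (columns, 3 per group); colours are limited at 2. In the upper block of 43 genes CPR5-C dexamethasone and WT water arrays are mostly high and the other groups low, and in the lower block of 55 genes the opposite holds; the single dark blue cell among the WT water arrays is AT2G28720 on WT water replicate 2 (-1.78).

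Array by array, the replicates of each group had similar medians. The median of the 43 genes stood at 0.79, 0.81 and 0.78 on the CPR5-C dexamethasone arrays, against -0.15, -0.27 and -0.22 on the CPR5-C water arrays. On the WT arrays it stood at -0.42, -0.32 and -0.41 after dexamethasone, against 0.25, 0.20 and 0.31 after water. Each CPR5-C dexamethasone array had all 43 genes above 0. The median of the 55 genes was -0.71, -0.74 and -0.73 on the CPR5-C dexamethasone arrays, against 0.18, 0.26 and 0.27 on the CPR5-C water arrays. It was 0.35, 0.32 and 0.31 on the WT dexamethasone arrays, against -0.19, -0.29 and -0.23 on the WT water arrays. These medians follow from the rule. A median over 43 or 55 genes hides the spread between arrays in single genes, so it cannot show how alike the replicates were gene by gene.

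The CPR5-C response was larger in size than the WT response in most of the genes, as it was in 70.9% of all probe sets and in 76.6% of the 342 locus-named probe sets past 0.4 in both genotypes. Its size exceeded the WT response in 31 of 43 genes of the first direction (median ratio 1.59, range 0.285 to 6.83) and in 49 of 55 of the second (median ratio 1.82, range 0.669 to 6.70), which is 72.1% and 89.1%. Over all probe sets the median size was 0.20 in CPR5-C and 0.09 in WT leaves. With quantile normalization of the centred values the CPR5-C response was the larger in 17 of 43 (39.5%) and 19 of 55 (34.5%). Of all probe sets it was then the larger in 57%. This step forces an equal spread on every array, and before it the spread was widest after dexamethasone in CPR5-C leaves. Larger WT responses follow from the step itself, so these counts cannot decide which response was the larger. Within the 43 genes the responses gave a correlation near 0 (Pearson r = -0.01, Spearman rho = 0.09, across genes). Within the 55 genes, those with a larger decrease in CPR5-C leaves had a larger increase in WT leaves (r = -0.51, rho = -0.43). These are descriptions across genes that share the same 12 arrays and a lower limit of 0.4, and genes are not independent replicates. The genes lay on all 5 chromosomes: 30 on chromosome 1, 14 on chromosome 2, 16 on chromosome 3, 17 on chromosome 4 and 21 on chromosome 5, which is 30.6%, 14.3%, 16.3%, 17.3% and 21.4%, against 26.0%, 16.5%, 20.5%, 14.4% and 22.6% of the locus-named probe sets.

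Dexamethasone and water arrays were free of overlap for all 98 genes in CPR5-C leaves (55.1% of all probe sets) and for 90 in WT leaves (26.2% of all probe sets), and 90 had no overlap in both (18.5%, and 6.78% with opposite signs). In limma's fit across all probe sets, all 98 were called in CPR5-C leaves (adjusted p under 0.05; 47.9% of all probe sets were called), 43 as higher (23.3%) and 55 as lower (24.6%). In WT leaves 88 were called (9.08%), 49 as higher (5.07%) and 39 as lower (4.01%). Called in both were 88 (7.08%, and 2.4% with opposite signs), 39 higher in CPR5-C and lower in WT leaves (0.778%) and 49 the other way (1.62%). The interaction was called for all 98 (38.5%). Between the dexamethasone groups of the genotypes 95 were called (47.4%) and 96 had no overlap (54.1%). The rule chose the genes on these differences, so nothing is read from these counts. The genes not called in WT leaves were AT5G52750 (-0.52, limma adjusted p = 0.143), AT1G66760 (-0.47, adjusted p = 0.0722), AT2G05540 (-0.46, adjusted p = 0.209), AT4G36010 (-0.41, adjusted p = 0.164), AT2G28720 (0.70, adjusted p = 0.322), AT5G55450 (0.64, adjusted p = 0.168), AT5G48570 (0.46, adjusted p = 0.258), AT4G29700 (0.45, adjusted p = 0.203), AT5G59670 (0.42, adjusted p = 0.0608) and AT1G35710 (0.42, adjusted p = 0.152). The WT arrays overlapped in 8 genes, 7 of those just named and AT1G54050 (0.49, adjusted p = 0.0306); in AT1G66760, AT5G59670 and AT1G35710 they did not overlap. Leaf RNA is a mixture of cell types, so fewer cells of a type and less RNA per cell cannot be told apart in any of these values.

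With each of the 12 arrays left out in turn, all 98 genes kept both signs, and 62 met the rule every time, 31 of 43 and 31 of 55. The rule took genes with both differences at least 0.4 in size on these same arrays, so a sign could hardly turn. These counts are therefore no independent check of the opposite responses. A single array moved the WT difference by more than 1.5 times in 9 genes. Without WT water replicate 2 the WT difference was 0.24 in AT5G59670, -0.24 in AT4G36010, 0.23 in AT1G35710, 0.26 in AT2G21830 and 0.09 in AT2G28720. Leaving out WT dexamethasone replicate 1 gave -0.32 in AT5G52750, 0.27 in AT5G48570 and 0.22 in AT4G29700. AT5G55450 was at 0.38 without WT water replicate 1. In CPR5-C leaves 1 gene moved as much: AT1G78460 was at 0.19 without CPR5-C dexamethasone replicate 3, in place of 0.43. AT5G15740 (0.4021), AT3G19470 (0.4027) and AT5G56980 (0.4059) were the genes closest to the threshold from inside, by the smaller of the 2 responses in size. AT2G24330 (0.3987), AT5G66820 (0.3964) and AT3G23170 (0.3954) were closest from outside.

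The CPR5-C and WT water leaves, neither of which had received dexamethasone, did not stand at the same value in these genes. For each of the 43 genes the CPR5-C water mean lay below the WT water mean (median difference -0.50, range -1.32 to -0.10), and for each of the 55 it lay above (median 0.48, range 0.04 to 1.43). Over all probe sets the median of this difference was 0.01, and its median size 0.09. The water arrays of the genotypes did not overlap in 84 of the 98 genes (24.9% of all probe sets), and 70 were called between them (7.08%). The difference was largest in AT1G68600 (1.43), AT5G11930 (1.33), AT4G28085 (-1.32) and AT4G33420 (-1.20), the extremes among the leading genes. CPR5-C water and WT water are parts of the differences that chose the genes, so these values are no independent result.

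The rule fixes the order of dexamethasone and water leaves within each genotype, and so allows only some orders of the 4 group means. In 30 of the 43 genes the order from high to low was CPR5-C dexamethasone, WT water, CPR5-C water, WT dexamethasone. In 35 of the 55 genes it was WT dexamethasone, CPR5-C water, WT water, CPR5-C dexamethasone. Another 16 of the 55 had CPR5-C water above WT dexamethasone and the same low end. WT water was the highest group in 10 of the 43 genes, 7 with WT dexamethasone lowest and 3 with CPR5-C water lowest, and WT water was the lowest group in 4 of the 55. In those 14 genes the CPR5-C dexamethasone mean did not pass the WT water mean. They include AT4G15680 (CPR5-C dexamethasone minus WT water -0.64), AT3G59350 (-0.51), AT4G15660 (-0.30) and, in the other direction, AT4G33080 (0.19), AT4G30400 (0.01) and AT4G29700 (0.03).

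Each dexamethasone group was also set against the water leaves of the other genotype, a choice made after the data had been seen. The rule used these same 4 means, so the sizes of these differences are shaped by the choice of genes and nothing is read from them. CPR5-C dexamethasone minus WT water had a median of 0.56 in the 43 genes (range -0.64 to 3.21), of which 26 were at 0.4 or above and 2 at -0.4 or below. In the 55 genes its median was -0.52 (range -2.50 to 0.19), with 33 at -0.4 or below. The arrays of these groups did not overlap in 76 of the 98 genes (54.8% of all probe sets). WT dexamethasone minus CPR5-C water had a median of -0.15 in the 43 genes (range -0.64 to 0.34) and 0.08 in the 55 (range -0.44 to 0.58). It reached 0.4 in size in 7 of the 43, all lower in WT dexamethasone leaves, and in 4 of the 55. The arrays of these groups did not overlap in 38 of the 98 genes (19.5% of all probe sets). Among the leading genes it reached that size in AT5G65660 (-0.50), AT4G34950 (-0.44), AT2G24550 (-0.62), AT1G02660 (-0.56), AT4G15700 (-0.64), AT1G68600 (-0.42) and AT2G21560 (0.58).

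**Figure D4:**
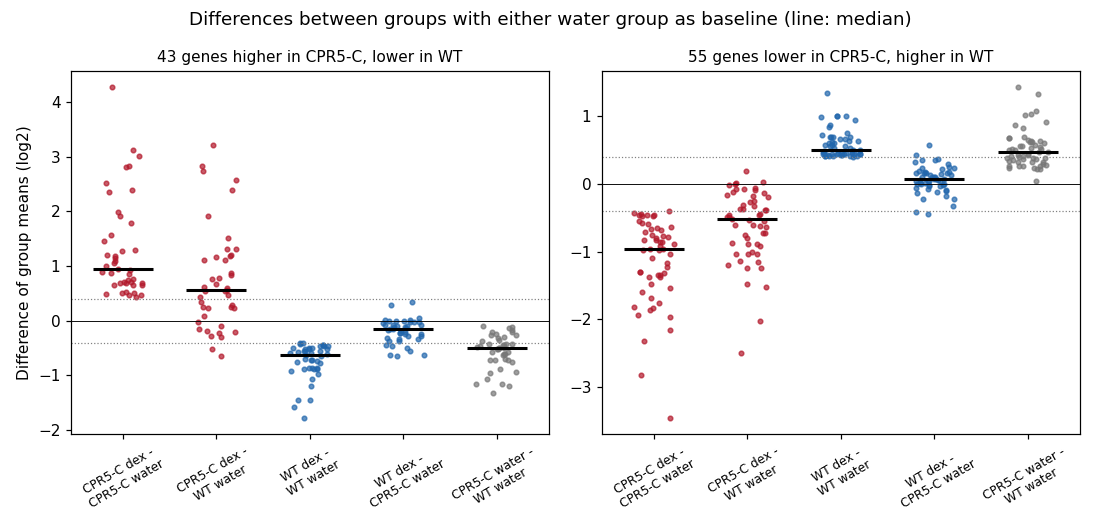
Differences of group means (log2) for the 43 genes (left) and the 55 genes (right), with the line at the median and dotted lines at 0.4. With the other genotype's water leaves as baseline the medians are 0.56 and -0.52 for CPR5-C dexamethasone and -0.15 and 0.08 for WT dexamethasone, against 0.95, -0.96, -0.62 and 0.51 with the own water leaves; the rule used all these means.

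Members that lie close together on a chromosome were sought in the gene order of the TAIR10.1 annotation, within 10 protein-coding genes. A run of 3 was found on chromosome 4, AT4G15660, AT4G15680 and AT4G15700, each 2 genes from the next and all of the first direction. AT4G15660 stood at 0.37, 0.14 and 0.35 in CPR5-C leaves after dexamethasone, against -0.14, -0.52 and -0.43 after water, a difference of 0.65 (SE 0.11). AT4G15660 in WT leaves was at -0.47, -0.69 and -0.66 after dexamethasone, against 0.46, 0.76 and 0.55 after water, a difference of -1.20 (SE 0.11). Its CPR5-C dexamethasone arrays all lay below its WT water arrays. AT4G15680 stood at 0.23, 0.18 and 0.06 in CPR5-C leaves after dexamethasone, against -0.06, -0.32 and -0.67 after water, a difference of 0.51 (SE 0.16). AT4G15680 in WT leaves was at -0.87, -1.15 and -0.91 after dexamethasone, against 0.46, 1.17 and 0.76 after water, a difference of -1.77 (SE 0.16). This was the largest WT decrease of the 98 genes, 3.42-fold, beside a CPR5-C difference of 1.42-fold. AT4G15700 stood at 0.79, 0.21 and 0.37 in CPR5-C leaves after dexamethasone, against -0.21, -0.23 and -0.28 after water, a difference of 0.70 (SE 0.15). AT4G15700 in WT leaves was at -0.83, -0.95 and -0.86 after dexamethasone, against 0.43, 1.07 and 0.57 after water, a difference of -1.57 (SE 0.15). WT water replicate 2 was the highest array for all 3 genes. AT4G15690, which lies between members, stood at -0.45, -0.38 and -0.79 in WT leaves after dexamethasone, against 0.56, 1.26 and 0.87 after water (-1.44, SE 0.15). In CPR5-C leaves it was at 0.09, -0.18 and -0.01 after dexamethasone, against 0.04, 0.01 and -0.03 after water (-0.04, SE 0.15, limma adjusted p = 0.857), so it shared the WT side only. The flanking genes AT4G15640 (-0.11 in CPR5-C and 0.01 in WT leaves), AT4G15650 (-0.04 and -0.06) and AT4G15710 (0.08 and -0.12) were not called in either genotype. How alike the transcripts of this run are was not examined, so signal shared between their probe sets was not tested.

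**Figure D5:**
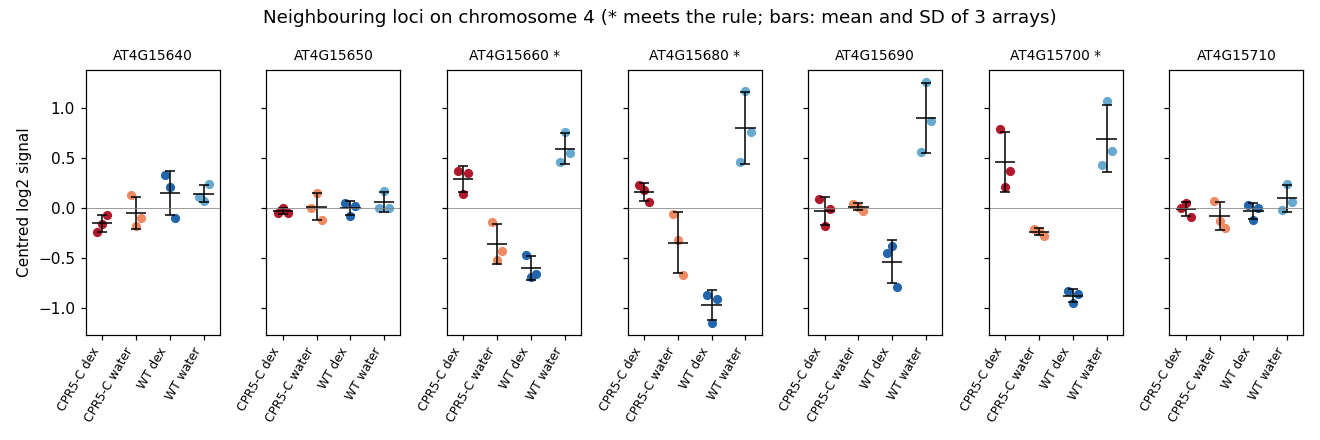
Centred log2 signal on each array for 7 neighbouring loci on chromosome 4 with a single-gene probe set, with the mean and SD of 3 arrays; an asterisk marks genes that meet the rule. AT4G15660, AT4G15680, AT4G15690 and AT4G15700 are highest in WT water and lowest in WT dexamethasone leaves, and the other 3 lie within 0.33 of 0 on every array.

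There were 3 further close pairs, given without the number that genes taken at random would show, so nothing is read from their count. AT1G68570 and AT1G68600, 4 genes apart, were both of the second direction, and AT1G24440 (1.10 in CPR5-C, -0.56 in WT leaves) and AT1G24530 (0.71 and -0.49), 10 genes apart, were both of the first. AT4G27300 (-1.31 and 0.47) and AT4G27350 (0.88 and -0.43), 5 genes apart, were of opposite directions.

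A second probe set was listed for 2 of the 98 genes, and neither met the rule. For AT3G26590 the member probe set gave -0.58 (SE 0.07) in CPR5-C and 0.50 (SE 0.07) in WT leaves. The other gave -0.34 (SE 0.07) in CPR5-C and 0.06 (SE 0.07) in WT leaves. They had the same sign in both genotypes, and the WT value was not called for the second (limma adjusted p = 0.735). For AT4G20830 the member probe set gave 1.45 (SE 0.12) in CPR5-C and -0.50 (SE 0.12) in WT leaves. A probe set listed for both AT4G20830 and AT4G20840 stood at -0.96, -1.13 and -1.05 in CPR5-C leaves after dexamethasone, against 0.00, 0.00 and 0.19 after water (-1.11, SE 0.09). Its WT difference was -0.04 (SE 0.09, adjusted p = 0.841). The probe sets for AT4G20830 thus disagreed in direction in CPR5-C leaves, and which transcript the shared one measured was not tested.

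The count of genes depended on how the arrays were scaled. The poly-A spike controls, RNAs added in known amounts, averaged -0.46, -0.59 and -0.09 on the CPR5-C dexamethasone arrays, against 0.08, 0.07 and -0.05 on the CPR5-C water arrays. They averaged 0.27, 0.06 and 0.10 on the WT dexamethasone arrays, against 0.03, -0.14 and 0.02 on the WT water arrays. With each array scaled to them, the median response over all probe sets became 0.39 in CPR5-C and -0.17 in WT leaves. The same rule then gave 240 genes of the first direction and 17 of the second, 93.4% of 257 in the first direction in place of 43.9% of 98. All 43 genes of the first direction were among the 240, and all 17 were among the 55. AT3G19470 alone changed sign, to 0.01 in CPR5-C leaves. Quantile normalization of the centred values, which gives every array the same spread, made the CPR5-C difference over 1.5 times smaller in 24 of the 98 genes and larger in 8, and the WT difference larger in 96. The CPR5-C difference of AT4G34950 was then 1.37 in place of 3.13, that of AT5G65660 1.61 in place of 2.81 and that of AT5G50915 2.79 in place of 4.27. AT2G12400 stood at 1.40 in place of 3.02, AT4G36010 at 1.48 in place of 2.83, AT1G62480 at 1.23 in place of 2.39, AT5G59670 at -1.32 in place of -2.82 and AT1G21590 at -1.11 in place of -1.97. Other leading genes moved by over 1.5 times too. AT2G16660 (1.26 in place of 1.92) and AT2G24550 (0.69 in place of 1.20) had smaller CPR5-C differences. So had AT2G21560 (-0.75 in place of -1.37) and AT2G27420 (-0.89 in place of -1.47). In AT3G59350 (1.30 in place of 0.65) and AT5G11930 (-2.82 in place of -1.86) the CPR5-C difference became larger. Why the spike controls differed between arrays was not tested.

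Genes with a gene name as symbol in the array's annotation that met the same thresholds give some context. They are no part of the 98 and were picked from 24 such genes after their values were seen. Higher in CPR5-C and lower in WT leaves were SDP1, a lipase of stored triacylglycerol (1.62 and -0.52), and UPB1, a transcription factor that acts on peroxidase genes in roots (3.11 and -0.48). Lower in CPR5-C and higher in WT leaves were MYC4, a transcription factor of jasmonate signalling (-0.60 and 0.97), AGO7, an Argonaute protein of small RNA pathways (-1.40 and 0.65), UGT74B1, a glucosyltransferase of glucosinolate synthesis (-1.60 and 0.50), and GAMMA-VPE, a vacuolar processing protease (-1.24 and 0.51). None of the 98 is in the lists of process and marker genes, and list genes were matched only through probe sets with a single gene (13513 of 22746), so most of their loci have no value here. Over all probe sets 23.3% were called higher and 24.6% lower in CPR5-C leaves, and 5.07% higher and 4.01% lower in WT leaves. Of 27 loci of touch, wound and rapid stress response, 8 had a value. Of these 8, 2 were higher and 6 lower in CPR5-C leaves (limma adjusted p under 0.05, median -0.60). In WT leaves 0 were higher and 6 lower (median -1.16). CML38, a calmodulin-like protein of this list, was past 0.4 in opposite directions (0.70 and -0.41). Its WT difference was not called (limma adjusted p = 0.168). Of 5 genes with a value, out of 23 loci of abscisic acid and dehydration response, 5 were higher in CPR5-C leaves (median 4.38) and 1 was lower in WT leaves (median -0.18). Of 5 genes with a value, out of 19 loci of auxin response and cell expansion, 2 were higher and 2 lower in CPR5-C leaves (median -0.06) and 0 were called in WT leaves (median -0.25). In these lists COR47, a dehydrin (3.71 and -0.46), and IAA29, a repressor of auxin signalling (3.43 and -0.62), were also past 0.4 in opposite directions. The medians of all probe sets were -0.02 and 0.00. The clock list had 1 gene matched of 18 (2.40 and 0.65) and the antenna list 2 of 13 (medians -0.48 and -0.04). The phloem markers had 1 of 6 (0.51 and 0.16) and the guard cell markers 2 of 7 (medians -1.67 and -0.27). These guard cell markers were unlike: FMA was at -0.28 and 0.07, and AT1G22690 at -3.06 and -0.61. No gene of the carbon starvation, xylem, epidermis and trichome, and mesophyll lists was matched to a single-gene probe set in the annotation used here; 9233 probe sets carry several genes or none in it.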

How the data were processed

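Mature-leaf RNA of 12 samples was hybridised to ATH1 arrays. The deposited log2 values came from RMA according to the submitters' processing notes (version not given in the sources used here). In the deposited table the median of each of the 22810 probe sets over the 12 arrays was 0 within 1e-06, so the values are centred per probe set; that the log base is 2 was taken from RMA, since the file does not state it, and depth has no meaning for arrays, where the number of arrays limits precision. From there, 64 control probe sets were left out and 22746 entered a limma model (version 3.58.1, R 4.3.3) of 4 group means, which had 8 residual degrees of freedom and a prior of 5.79. Adjustment was by Benjamini-Hochberg over all 22746, with a threshold of 0.05. SEs are limma's moderated ones. No value was imputed and no array dropped.

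Genes were named through the platform's probe table and matched to the TAIR10.1 gene table, which held all 98. The members, the threshold of 0.4 and the gene lists were chosen with earlier results of these data known. The naming rule took, in each direction, the 15 genes with the largest smaller response in size, and, over both directions together, the 3 just inside and the 3 just outside the threshold, members of the lists, and up to 3 genes of each order of the group means; genes named for their neighbours, second probe sets, gene names or dependence on 1 array were chosen after their values were seen. The planned grouping by protein class and the search for promoter motifs were not done. The fit was tested on simulated data. Alternatives were other thresholds, scalings, weights, sample sets, the replicate number as a block and leaving out each array. Tables were handled with Python 3.11.15, pandas 2.3.3 and matplotlib 3.10.9.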

Additional observations from a re-analysis of the deposited data

Results flagged for a closer look

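The response to dexamethasone differed between the genotypes, by limma's interaction term at an adjusted p under 0.05, in 98 of the 98 genes, against 38.5% of all probe sets. The rule chose genes whose responses oppose each other, so this count was fixed by the choice. Groups of 3 arrays are too small for the test for outlying samples.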

How the results depend on the processing

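The number of genes followed the threshold: 78 genes of the first direction (higher in CPR5-C, lower in WT leaves) and 123 of the second at 0.3, 29 and 27 at 0.5, and 18 and 19 at 0.6, against 43 and 55 at 0.4. Poly-A spike scaling gave 240 and 17, quantile normalization of the centred values 95 and 143. With spike scaling the medians of the 43 genes were 1.36 in CPR5-C and -0.79 in WT leaves, and those of the 55 were -0.55 and 0.34. With quantile normalization the WT medians were -1.06 and 1.05, and the CPR5-C medians 0.90 and -0.88. With the other genotype's water leaves as baseline, chosen after seeing the data, the medians were 0.56 in CPR5-C and -0.15 in WT leaves for the 43 genes and -0.52 and 0.08 for the 55. Of the 98 genes, 88 were called in both genotypes, 56 with spike scaling. AT3G19470 turned to 0.01 in CPR5-C leaves with spike scaling. Quantile normalization gives every array the same spread, and the larger WT medians follow from that step. The cause of the other shifts was not tested. Leaving out 1 array gave 39 (without WT dexamethasone replicate 1) to 50 genes of the first direction and 45 (without WT water replicate 2) to 71 of the second, sharing at least 38 and 43 with the lists used here. It gave 76 to 86 called in both genotypes.

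Same-numbered arrays of different groups deviated together in 2 of 18 pairs (correlation over 0.1, range -0.207 to 0.362). Arrays with unlike numbers did so in 11 of 36 pairs (range -0.395 to 0.418). These values gave no sign of pairing by number. With 3 arrays a group they cannot show whether equal numbers mark samples handled together. With the replicate number as a block, 85 genes were called in both genotypes (84 as a random block), and the interaction in 98. Limits: 3 arrays a group, centred values that hide levels, no level of signal over background, and no named probe set for CPR5 or the construct among the genes used here.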
